A study of Mus musculus with 16 samples.

Results

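The genes of the hexosamine pathway and of O-GlcNAc cycling were followed across non-tumour liver and liver tumours of transgenic mice. The group holds 10 genes, Gfpt1, Gfpt2, Gnpnat1, Pgm3, Uap1, Uap1l1, Ogt, Oga, Nagk and Gnpda1, chosen by name. Each was read from array rows annotated with that 1 symbol, and of several such rows from the one with the highest mean over 16 arrays. All 10 had a row, out of 22180 genes with one, and 9 lay high enough to be tested among 13555 genes. Gfpt2 was the exception and is described without the filter.

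The mice had the C57BL/6J background and were 18 months old at collection. Each of 4 MYC mice (genotype label MYC+/+, REG3A-/-) and 4 MYC/REG3A mice (MYC+/+, REG3A+/+) gave a tumour and a non-tumour sample of the liver, for 16 arrays from 8 mice in 4 groups of 4. All mice, also those without REG3A, carry the WHC-MYC transgene, which expresses the c-MYC oncogene in the liver under woodchuck hepatitis virus control. There was no liver free of that transgene, so non-tumour liver is not normal liver. The promoter of the REG3A transgene, which encodes a secreted C-type lectin, is not given in the sources used here.

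The hexosamine pathway takes a small part of the cell's fructose 6-phosphate and, with glutamine as the nitrogen donor, turns it into UDP-GlcNAc. This sugar nucleotide feeds N-glycans, O-glycans, glycolipid anchors, hyaluronan and sialic acid, and it is the donor for O-GlcNAc, a single sugar that the enzyme OGT places on serines and threonines of nuclear and cytosolic proteins and that OGA takes off again. In hepatocytes O-GlcNAc is known to vary with nutrient supply and to modify transcription factors of glucose and lipid metabolism.

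Promoter sequences are shown for 2 genes, Pgm3, the one gene with an entry in the promoter table among the 3 that rose in MYC tumours, and Gfpt1, which encodes the rate-limiting enzyme. Both are the 250 bases before the transcription start of the promoter entry, from RefSeq, build GRCm38.p6. They lie at chr9:86571843-86572092 on the minus strand for Pgm3 and chr6:87042596-87042845 on the plus strand for Gfpt1. The RefSeq interval of the Pgm3 gene reaches to base 86571878. The end of its window, with the last marked match, therefore lies within the annotated gene. Capitals mark matches to CCAAT on either strand, which reads ATTGG on the other one.
Pgm3: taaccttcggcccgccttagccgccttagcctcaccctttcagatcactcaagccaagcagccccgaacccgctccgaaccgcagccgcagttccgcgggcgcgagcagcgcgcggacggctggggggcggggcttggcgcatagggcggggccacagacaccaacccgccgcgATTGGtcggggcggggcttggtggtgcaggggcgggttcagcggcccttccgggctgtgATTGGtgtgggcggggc
Gfpt1: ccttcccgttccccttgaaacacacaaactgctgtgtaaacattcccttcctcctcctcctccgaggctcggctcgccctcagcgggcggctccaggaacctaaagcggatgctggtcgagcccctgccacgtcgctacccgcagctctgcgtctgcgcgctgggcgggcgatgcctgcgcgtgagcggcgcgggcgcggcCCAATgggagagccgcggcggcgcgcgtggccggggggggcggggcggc

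Of the 10 genes, 7 had promoter entries: Gfpt1, Gfpt2, Pgm3, Uap1, Ogt, Oga and Nagk. The E-box CACGTG, the core sequence that MYC and its partner MAX bind, was in 0 of these 7 windows on either strand, and in 6.03% of all 32544 promoter windows of that length. The ER stress element, CCAAT and CCACG with any 9 bases between them, and the unfolded protein response element TGACGTGG, which ATF6 and XBP1 bind, were likewise in 0 of the 7, and in 0.114% and 0.568% of all windows. Gfpt1 is known as a target of XBP1, and a missing match says only that these letters do not stand in this window. CCAAT, which overlaps the first of these elements, was in the windows of 4 genes, Gfpt1, Gfpt2, Pgm3 and Uap1, and in 33.8% of all windows.

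Array means were 5.434 to 5.465 and array medians 4.90 to 4.97 on the log2 scale. The summed level of 5 hepatocyte markers lay between 14.52 and 14.86 on the log2 scale on every array, and was somewhat lower in the tumour of every mouse. It was 14.78 to 14.82 in MYC non-tumour liver and 14.52 to 14.73 in MYC tumours. In MYC/REG3A mice it was 14.79 to 14.86 in non-tumour liver and 14.54 to 14.84 in tumours. The tumours of MYC/REG3A mice 2 and 4 stood apart from the other 6 tumours on the first principal component, at -4.21 and 2.55, between non-tumour liver (-31.0 to -26.4) and the other tumours (32.7 to 42.3). Tumour changes of MYC/REG3A mice are also given without these mice where the value moved by over 1.5 times or the call differed. Values below are log2 levels of RMA-normalised expression, and since probes differ in brightness, levels of different genes are not compared.

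In MYC mice the question is which of these genes differ between a tumour and the liver around it. Uap1l1, Pgm3 and Gnpda1 rose in the tumours, by 0.89, 0.64 and 0.68 on the log2 scale, and 0 of the 9 tested genes fell. The call of Gnpda1 was marginal. Ogt, Oga, Gfpt1, Gnpnat1, Uap1 and Nagk did not pass the threshold, a limma adjusted p under 0.05. Among all tested genes 33.2% passed in this comparison, 17.4% as higher and 15.8% as lower, so 3 of 9 genes (33.3%) is the share of the array as a whole. The median change of the 9 genes was 0.19, against -0.03 over all tested genes.

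In MYC/REG3A mice 0 of the 9 genes passed in the same comparison, where 12.5% of all tested genes did. An unadjusted p under 0.05, which 30.1% of all tested genes reached there, was found for 2 of the 9, Gnpnat1 and Uap1l1, with limma adjusted p of 0.0558 and 0.0641. The median change of the 9 genes was 0.16, against -0.02 over all tested genes.

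The agreement between mice is given beside that of all tested genes. In MYC mice 4 of the 9 genes, Gnpnat1, Pgm3, Uap1l1 and Nagk, differed the same way in all 4 mice, against 47% of all tested genes, and for 2, Pgm3 and Uap1l1, tumours and non-tumour livers did not overlap, against 30.1%. The MYC/REG3A mice had 2 such genes of 9, Gnpnat1 and Uap1, against 40.4%, and 1 without overlap, Gnpnat1, against 19.4%.

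**Figure D1:**
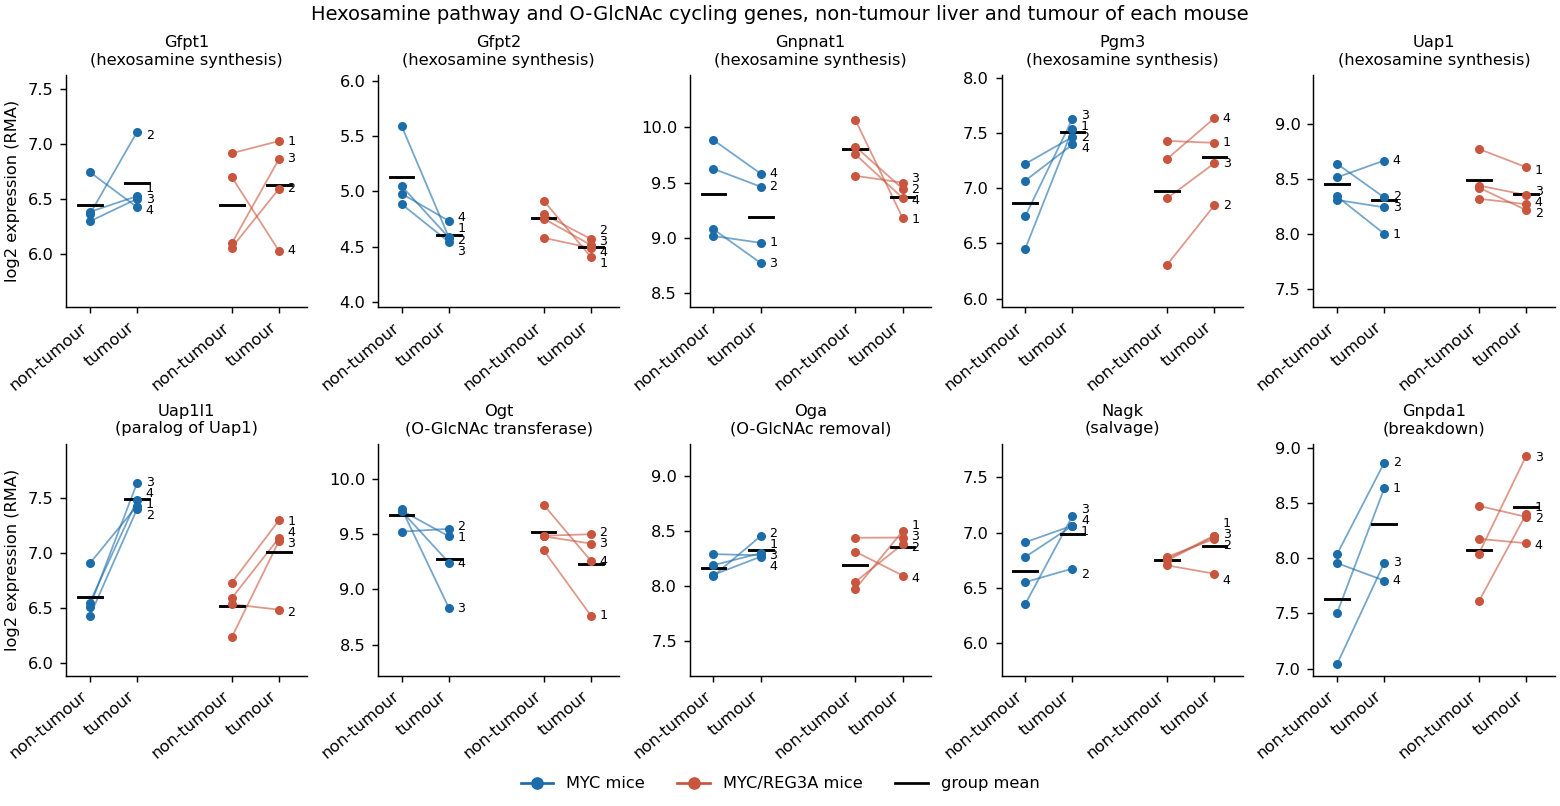
Log2 expression (RMA) of the 10 genes in non-tumour liver and tumour of each mouse; lines join the 2 samples of a mouse, numbers are mouse numbers, black bars are group means (n = 4), and all panels span the same log2 range around different centres. The 4 MYC tumours lie above all 4 MYC non-tumour livers for Pgm3 (7.40 to 7.63 against 6.45 to 7.22) and Uap1l1 (7.40 to 7.63 against 6.43 to 6.90).

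The synthesis of UDP-GlcNAc starts with glutamine-fructose-6-phosphate amidotransferase, encoded by Gfpt1 and Gfpt2. Gfpt1, the main form in liver, had levels of 6.38, 6.36, 6.30 and 6.74 in the non-tumour livers of MYC mice 1 to 4 and of 6.53, 7.11, 6.50 and 6.43 in their tumours. Its levels in MYC/REG3A mice 1 to 4 were 6.92, 6.06, 6.10 and 6.70 in non-tumour liver and 7.03, 6.59, 6.86 and 6.03 in tumours. The groups overlapped in both genotypes, and mouse 4 of each genotype had the lower value in the tumour while the other mice had the higher one. The difference was 0.19 in MYC mice (SE 0.228, n = 4 mice, limma adjusted p = 0.548) and 0.18 in MYC/REG3A mice (SE 0.228, adjusted p = 0.63). The changes of single mice ran from -0.67 to 0.77, so the spread between mice was larger than either mean. Without MYC/REG3A mice 2 and 4 the difference in that genotype was 0.44 (adjusted p = 0.333).

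Gfpt2, the second form, is known more from mesenchymal cells than from hepatocytes. Its levels were 5.59, 5.05, 4.89 and 4.98 in the non-tumour livers of MYC mice 1 to 4 and 4.58, 4.58, 4.54 and 4.73 in their tumours. The MYC/REG3A mice had 4.92, 4.80, 4.75 and 4.58 in non-tumour liver and 4.41, 4.57, 4.52 and 4.49 in tumours. In both genotypes every tumour lay below every non-tumour liver, and all 8 mice had the lower value in the tumour. The gap in MYC/REG3A mice was small, from 4.57 in the highest tumour to 4.58 in the lowest non-tumour liver. Among the 13555 tested genes, which leave out Gfpt2, 30.1% in MYC and 19.4% in MYC/REG3A mice had groups without overlap. Of those genes 26.6% differed the same way in all 8 mice. In a fit without the filter on low values Gfpt2 fell by 0.52 in MYC mice (SE 0.126, over 4 mice, limma adjusted p = 0.0199), where 9.54% of 22180 genes were called lower. Without MYC mouse 1 its difference was -0.35 and the call was lost (adjusted p = 0.0582). Its difference in MYC/REG3A mice was -0.27 (SE 0.126, adjusted p = 0.26), where 2.34% of genes were called lower. All 8 tumours and 5 of the 8 non-tumour livers were at or below the array's median, near which background compresses differences.

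Markers of stellate cells and fibroblasts were, as a group, also lower in the tumours, and their changes were not compared with those of Gfpt2 mouse by mouse. Of 10 such markers 6 fell and 0 rose in MYC tumours (median change -1.21), and 3 fell and 0 rose in MYC/REG3A tumours (median -0.43). In the mean over both genotypes 6 of these markers fell and 1 rose. Their summed log2 level was 11.98 to 12.80 in MYC non-tumour liver and 10.80 to 11.38 in MYC tumours, and 11.84 to 12.08 and 9.998 to 11.86 in MYC/REG3A mice, with 0 of the 10 below the lower quartile of the arrays in any group. Sinusoidal endothelial markers (7 of 8 fell in MYC tumours, 5 of 8 in MYC/REG3A tumours) and Kupffer cell markers (6 of 8 and 7 of 8) were lower as well. Among all tested genes 15.8% were called lower in MYC tumours, and 662 of 13555 in MYC/REG3A tumours. The part of these cell types in the result for Gfpt2 was not tested. In bulk tissue fewer cells of a type and less RNA per cell cannot be told apart.

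Gnpnat1 encodes the enzyme that acetylates glucosamine 6-phosphate. Its levels were 9.02, 9.63, 9.08 and 9.89 in the non-tumour livers of MYC mice and 8.95, 9.46, 8.77 and 9.58 in their tumours. Those of MYC/REG3A mice were 10.07, 9.83, 9.56 and 9.76 in non-tumour liver and 9.18, 9.45, 9.50 and 9.36 in tumours. All 8 mice had the lower value in the tumour, and in MYC/REG3A mice the 2 groups did not overlap. The difference was -0.21 in MYC mice (SE 0.13, n = 4 mice, limma adjusted p = 0.243) and -0.43 in MYC/REG3A mice (SE 0.13, adjusted p = 0.0558), neither past the threshold. With array weights the MYC/REG3A value was -0.40 with an adjusted p of 0.0471, and without mouse 1, whose change was -0.89, it was -0.28 with an adjusted p of 0.219. A second row, which the annotation shares between Styx and Gnpnat1 and which was not used, differed by -0.50 and -0.37.

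Pgm3 encodes the mutase that moves the phosphate of N-acetylglucosamine from carbon 6 to carbon 1. Its levels were 6.45, 7.22, 6.74 and 7.07 in the non-tumour livers of MYC mice 1 to 4 and 7.53, 7.46, 7.63 and 7.40 in their tumours. The groups did not overlap, and the tumours were closer to each other (SD 0.0997) than the non-tumour livers (SD 0.344). In MYC/REG3A mice the levels were 7.43, 6.31, 6.91 and 7.27 in non-tumour liver and 7.41, 6.85, 7.23 and 7.63 in tumours, which overlapped. Pgm3 rose by 0.64 in MYC tumours (SE 0.155, over 4 mice, limma adjusted p = 0.0123), and its difference in MYC/REG3A tumours was 0.30 (SE 0.155, adjusted p = 0.223). Without MYC mouse 1 the rise in MYC tumours was 0.49 with an adjusted p of 0.0558, and without MYC mouse 3 it was 0.55 with an adjusted p of 0.0516. Without MYC/REG3A mice 2 and 4 the difference in that genotype was 0.15.

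Uap1 encodes the pyrophosphorylase that completes UDP-GlcNAc, and Uap1l1 a close relative of it. Uap1 had levels of 8.34, 8.64, 8.31 and 8.51 in MYC non-tumour liver and 8.002, 8.33, 8.24 and 8.67 in MYC tumours. Uap1 in MYC/REG3A mice lay between 8.32 and 8.77 in non-tumour liver and between 8.22 and 8.61 in tumours. The groups overlapped, and its differences of -0.14 and -0.13 (SE 0.106, limma adjusted p = 0.34 and 0.46) did not pass. Changes of single mice ran from -0.34 to 0.15 in MYC mice and from -0.20 to -0.05 in MYC/REG3A mice. In the latter all 4 mice had the lower value in the tumour, where 40.4% of all tested genes differed the same way in all mice.

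Uap1l1 was the gene of the group with the largest tested change, measured as the limma estimate. Its levels were 6.90, 6.43, 6.51 and 6.55 in the non-tumour livers of MYC mice 1 to 4 and 7.43, 7.40, 7.63 and 7.48 in their tumours. Every MYC tumour lay above every MYC non-tumour liver. The rise in MYC tumours was 0.89 (SE 0.152, 4 mice, limma adjusted p = 0.00281), more than 90.1% of all tested genes changed in either direction, and it stayed past the threshold in all 13 alternative analyses. Levels in MYC/REG3A mice were 6.73, 6.53, 6.23 and 6.59 in non-tumour liver and 7.30, 6.48, 7.11 and 7.14 in tumours. The tumour of mouse 2 was no higher than its non-tumour liver, while the tumours of the other mice were. The difference was 0.48 (SE 0.152, adjusted p = 0.0641), 0.66 without mouse 2 (adjusted p = 0.0236) and 0.72 without mice 2 and 4 (adjusted p = 0.0482). With the mouse as a random block it was also called, at an adjusted p of 0.0448. Without mouse 3 it was 0.35 with an adjusted p of 0.258, and without mouse 1 or 4 it was not called either.

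**Figure D2:**
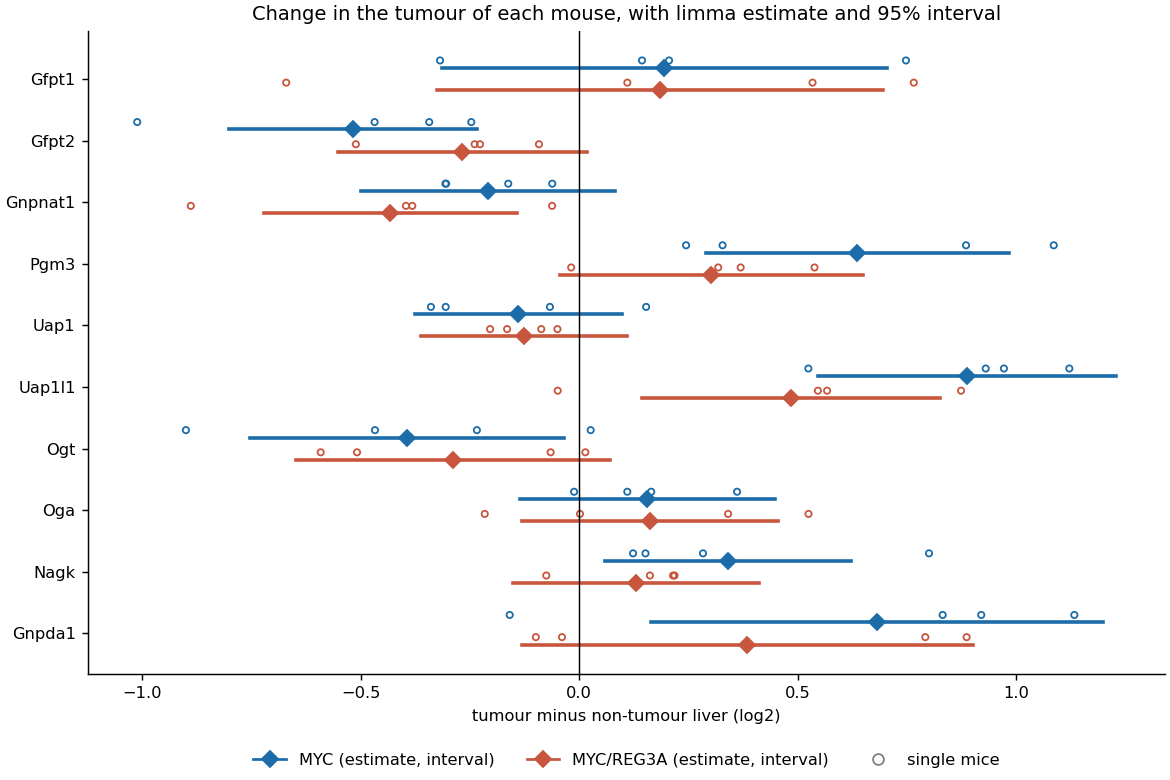
Tumour minus non-tumour liver (log2) for the 10 genes; open circles are single mice, diamonds the limma estimates and bars their 95% confidence intervals, in MYC mice (blue) and MYC/REG3A mice (red), with Gfpt2 from the fit without a filter. In MYC mice the intervals of Pgm3, Uap1l1, Gnpda1 and Nagk lie above 0 and those of Gfpt2 and Ogt below 0 before adjustment for the number of genes.

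Ogt encodes the transferase and Oga the hydrolase of O-GlcNAc. Ogt had levels of 9.72, 9.52, 9.73 and 9.71 in the non-tumour livers of MYC mice 1 to 4 and 9.48, 9.55, 8.83 and 9.24 in their tumours. Its MYC/REG3A levels were 9.36, 9.49, 9.48 and 9.77 in non-tumour liver and 8.76, 9.50, 9.42 and 9.26 in tumours. The lowest of the 16 values were those of the tumours of MYC mouse 3 and MYC/REG3A mouse 1, and in mouse 2 of both genotypes tumour and liver had nearly the same level. The difference was -0.39 in MYC mice (SE 0.161, n = 4 mice, limma adjusted p = 0.0864) and -0.29 in MYC/REG3A mice (SE 0.161, adjusted p = 0.261), neither past the threshold. Without MYC mouse 2 the MYC value was -0.53 with an adjusted p of 0.0437, and without MYC mouse 3 it was -0.23 with an adjusted p of 0.328.

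Oga had levels of 8.19, 8.09, 8.29 and 8.10 in MYC non-tumour liver and 8.30, 8.45, 8.28 and 8.27 in MYC tumours. The MYC/REG3A mice had levels of 7.97, 8.04, 8.44 and 8.31 in non-tumour liver and 8.50, 8.38, 8.44 and 8.09 in tumours. The groups overlapped, with differences of 0.16 in either genotype (SE 0.131, limma adjusted p = 0.39 and 0.441). Without MYC/REG3A mice 2 and 4 the latter was 0.26 (adjusted p = 0.39). A dimmer second row of Oga, with a mean of 4.84, differed by 0.31 and 0.27.

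Set against each other within each mouse, the change of Ogt was below that of Oga in 8 of 8 mice. The change of Ogt minus that of Oga was -0.34, -0.33, -0.89 and -0.63 in MYC mice 1 to 4, with a mean of -0.55 ± 0.264 (SD, n = 4). It was -1.12, -0.33, -0.07 and -0.29 in MYC/REG3A mice 1 to 4, with a mean of -0.45 ± 0.458 (SD, n = 4). MYC/REG3A mouse 3 was close to equal change. This pair was formed after its values were seen and is given as a description with no test. Neither gene passed in either genotype. Of single tested genes 26.6% differed the same way in all 8 mice, and the share of gene pairs that do so was not counted. The comparison describes the transcripts and says nothing of protein or of O-GlcNAc itself, which were not measured.

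**Figure D3:**
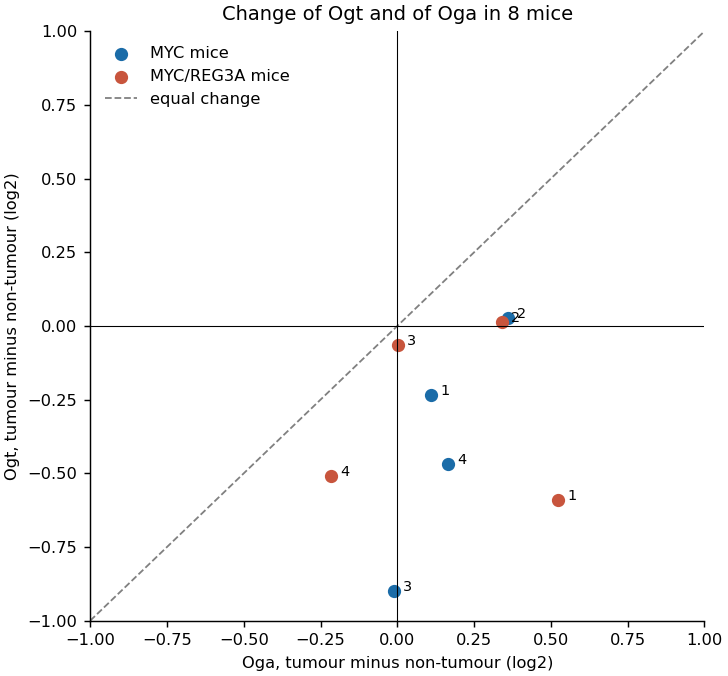
Change of Ogt (vertical) against change of Oga (horizontal), both tumour minus non-tumour liver on the log2 scale, with 1 point per mouse and its number; the dashed line marks equal change. All 8 points lie below the line, by 0.07 to 1.12.

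Nagk encodes the kinase that returns free N-acetylglucosamine, set free by glycan breakdown, to the pathway. Its levels were 6.78, 6.55, 6.35 and 6.91 in MYC non-tumour liver and 7.06, 6.67, 7.15 and 7.06 in MYC tumours. All 4 MYC mice had the higher value in the tumour, with overlapping groups, and the difference of 0.34 did not pass (SE 0.126, n = 4 mice, limma adjusted p = 0.0636). It passed with arrays centred on their medians (0.38, adjusted p = 0.0454) and with the mouse as a random block (adjusted p = 0.045). Without MYC mouse 3, whose change was 0.80, it was 0.19 (adjusted p = 0.252). Levels in MYC/REG3A mice were 6.70 to 6.78 in non-tumour liver and 6.97, 6.94, 6.96 and 6.63 in tumours, a difference of 0.13 (SE 0.126, adjusted p = 0.53), or 0.22 without mice 2 and 4 (adjusted p = 0.525). There the tumour of mouse 4 lay below all 4 non-tumour livers and the other 3 tumours above them.

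Gnpda1 encodes a deaminase that runs the first step backwards, from glucosamine 6-phosphate to fructose 6-phosphate and ammonia. Its levels were 7.50, 8.04, 7.04 and 7.96 in the non-tumour livers of MYC mice 1 to 4 and 8.63, 8.87, 7.96 and 7.80 in their tumours. It was higher by 0.83 to 1.13 in the tumours of mice 1 to 3 and lower by 0.16 in that of mouse 4. Gnpda1 rose by 0.68 in MYC tumours (SE 0.231, over 4 mice, limma adjusted p = 0.0463), a call that 8 of 13 alternatives lost, among them those without MYC mouse 1, 2 or 3 (0.53, 0.63 and 0.60, adjusted p of 0.171, 0.117 and 0.14).

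In MYC/REG3A mice Gnpda1 split by mouse. Its levels were 7.61, 8.47, 8.04 and 8.18 in non-tumour liver and 8.40, 8.37, 8.93 and 8.14 in tumours. Mice 1 and 3 had changes of 0.79 and 0.89, while mice 2 and 4, whose tumours stood between the others and non-tumour liver, had -0.10 and -0.04. The tumour of MYC mouse 4, with a change of -0.16, stood at 42.3 on the first principal component. A link between the position on that component and the level of Gnpda1 was not tested. The difference was 0.38 (SE 0.231, adjusted p = 0.295), and 0.84 without mice 2 and 4 (adjusted p = 0.109). A dimmer row that the annotation shares between Gm8615 and Gnpda1 differed by 0.42 and 0.27.

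Since the changes pointed the same way in both genotypes for all 10 genes, a mean over both was added after the data were seen. It uses the same arrays and is no independent evidence. Over the 8 mice Uap1l1 rose by 0.69 (SE 0.108, limma adjusted p = 0.00103), Gnpda1 by 0.53 (SE 0.163, adjusted p = 0.025) and Pgm3 by 0.47 (SE 0.11, adjusted p = 0.00737). Ogt fell by 0.34 (SE 0.114, adjusted p = 0.0352) and Gnpnat1 by 0.32 (SE 0.0916, adjusted p = 0.0187). Nagk (0.23, adjusted p = 0.0575), Gfpt1 (0.19, adjusted p = 0.377), Oga (0.16, adjusted p = 0.195) and Uap1 (-0.13, adjusted p = 0.181) did not pass. The 5 of 9 genes called compare with 43% of all tested genes, 21.5% as higher and 21.4% as lower, so this share too is close to that of the array. The direction held in all 8 mice for Gnpnat1, in 7 for Uap1l1 and Pgm3, in 6 for Ogt and in 5 for Gnpda1. Among the genes that did not pass it held in 7 mice for Uap1 and Nagk and in 6 for Oga and Gfpt1. The share of all genes that agreed in 7 or fewer mice was not counted. A difference the same way in all 8 mice, as in Gnpnat1, was found in 26.6% of all tested genes.

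Without the filter Gfpt2 fell by 0.39 over the 8 mice (SE 0.0892, adjusted p = 0.0105), against 13.6% of 22180 genes called lower. The calls of Ogt, Gnpnat1 and Pgm3 were lost without MYC/REG3A mice 2 and 4, at adjusted p of 0.0913, 0.0703 and 0.0669, and that of Gfpt2 held there (-0.45, adjusted p = 0.0363) and without any single mouse. That of Ogt was also lost with arrays centred on their medians (-0.31, adjusted p = 0.0507) and without MYC mouse 3 or 4 or MYC/REG3A mouse 1 or 4, and that of Gnpnat1 without the mouse block (adjusted p = 0.0904) and with the mouse as a random block (adjusted p = 0.0649). The call of Gnpda1 was lost in 6 of 17 alternatives, those with array weights (0.42, adjusted p = 0.0672) and without MYC mouse 1, 2 or 3 or MYC/REG3A mouse 1 or 3. Nagk was called with centred arrays (0.27, adjusted p = 0.0373), with the mouse as a random block and without MYC mouse 2, and Oga with its 2 rows averaged (0.22, adjusted p = 0.0363).

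The comparisons between genotypes ask whether REG3A goes with other levels of these genes. In non-tumour liver 0 of the 9 tested genes passed, and 0 of all tested genes (0%) did; at an unadjusted p under 0.05 there were 0 of the 9, and 5.45% of all tested genes. Gnpda1 and Gnpnat1 had the widest differences of MYC/REG3A minus MYC, 0.44 (95% confidence interval -0.14 to 1.02) and 0.40 (-0.04 to 0.84), with limma adjusted p of 0.989 and 0.949. For Ogt the difference was -0.15 (-0.51 to 0.21), for Oga 0.02 (-0.23 to 0.27) and for Gfpt1 -0.0036 (-0.50 to 0.49). These intervals still allow differences of 0.2 to 0.5 on the log2 scale either way. Gfpt2, without the filter, differed by -0.36 (-0.63 to -0.10, adjusted p = 0.933).

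In tumours 0 of the 9 genes passed as well, where 0.0221% of all tested genes did. Uap1l1 alone of the 9 had an unadjusted p under 0.05, as did 10.6% of all tested genes, and was lower in MYC/REG3A than in MYC tumours by 0.48 (-0.82 to -0.13, SE 0.162, limma adjusted p = 0.356). Its 4 MYC/REG3A tumours (6.48 to 7.30) all lay below its 4 MYC tumours (7.40 to 7.63), a separation that 3.53% of all tested genes had. Without MYC/REG3A mice 2 and 4 the difference was -0.28 (adjusted p = 0.93). Ogt differed by -0.04 (-0.40 to 0.32), Oga by 0.03 (-0.22 to 0.28), Gfpt1 by -0.01 (-0.51 to 0.48) and Pgm3 by -0.23 (-0.71 to 0.26).

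The tumour changes of the genotypes were compared directly, as MYC/REG3A minus MYC. None of the 9 genes passed in limma, at an unadjusted p under 0.05 there were 0 against 5.58% of all tested genes, and 0.00738% of all tested genes passed. The largest differences of change were -0.40 for Uap1l1 (-0.88 to 0.08, adjusted p = 0.873) and -0.33 for Pgm3 (-0.82 to 0.16, adjusted p = 0.878). For Gnpda1 the difference of change was -0.30 (-1.03 to 0.43), for Gnpnat1 -0.22 (-0.63 to 0.19) and for Ogt 0.11 (-0.40 to 0.61). So a gene called in MYC tumours and not in MYC/REG3A tumours, such as Pgm3 or Uap1l1, was not shown to differ between the genotypes.

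**Figure D4:**
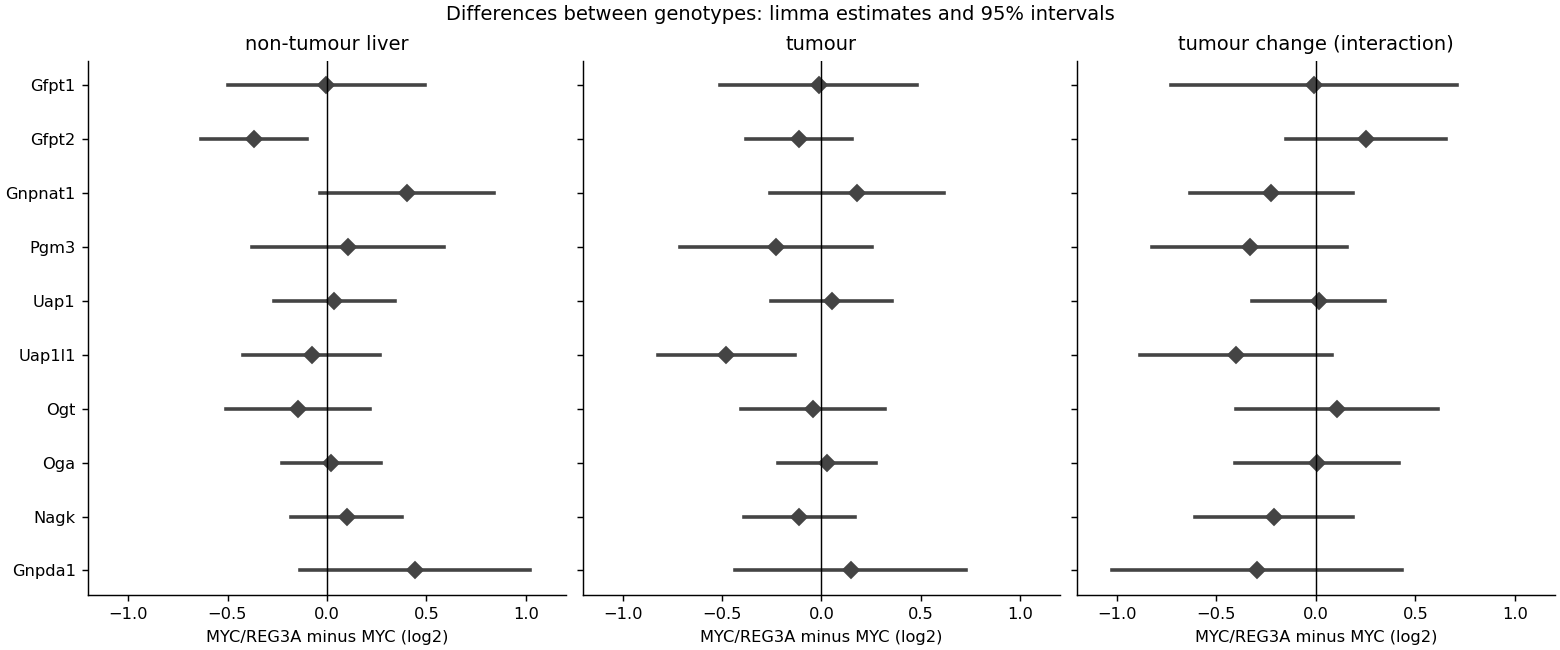
Differences of MYC/REG3A minus MYC mice (log2) for the 10 genes in non-tumour liver, in tumours, and in the change from non-tumour liver to tumour; diamonds are limma estimates and bars 95% confidence intervals (n = 4 mice per genotype), with Gfpt2 from the fit without a filter. Most intervals include 0; those of Gfpt2 in non-tumour liver (-0.63 to -0.10) and Uap1l1 in tumours (-0.82 to -0.13) do not, and neither passes after adjustment.

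In the order of the 4 group means, neighbours differed by less than the larger of their SDs for 8 of the 10 genes. The exceptions were Gfpt2 and Uap1l1. This rule leaves out the pairing by mouse, and the share of all genes beyond it was not counted. Most values of Gfpt2 lay at or below the array's median, and its neighbouring groups overlapped in single values. Gfpt2 ran from MYC/REG3A tumours (4.49 ± 0.0675, SD, n = 4) over MYC tumours (4.61 ± 0.0842) and MYC/REG3A non-tumour liver (4.76 ± 0.14) to MYC non-tumour liver (5.13 ± 0.318). Uap1l1 ran from MYC/REG3A (6.52 ± 0.208) and MYC non-tumour liver (6.60 ± 0.21), which did not differ beyond their spread, over MYC/REG3A tumours (7.01 ± 0.357) to MYC tumours (7.48 ± 0.105).

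Other genes around the pathway were followed in 7 lists of 83 genes, of which 71 were tested. The lists cover the supply, transport and use of UDP-GlcNAc and the breakdown of amino sugars. They also hold partner proteins of OGT (9 tested) and the unfolded protein response (11 tested), which are part of the shares given next. In MYC tumours 7 rose and 8 fell (21.1%, against 33.2% of all tested genes), and in MYC/REG3A tumours 2 rose and 1 fell (4.23%, against 12.5%). Of 10 genes of substrate supply 1 rose and 2 fell in MYC tumours (median -0.30). Hk2, a hexokinase low in normal hepatocytes, rose by 0.62 (SE 0.152, limma adjusted p = 0.0127), while Acly, which makes cytosolic acetyl-CoA, fell by 1.05 (SE 0.225) and Glul, the glutamine synthetase, fell by 1.91 (SE 0.615). In MYC/REG3A tumours Hk2 rose by 0.60 (SE 0.152, adjusted p = 0.0329), and Acly and Glul differed by -0.66 and -1.16 without passing.

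Among genes that move or convert UDP-sugars, 1 of 7 rose and 2 fell in MYC tumours. Slc35b4, a transporter of UDP-xylose and UDP-GlcNAc into the Golgi and ER, fell by 1.13 in MYC tumours (SE 0.184, limma adjusted p = 0.00229) and by 0.72 in MYC/REG3A tumours (SE 0.184, adjusted p = 0.0342). Slc35a3, the Golgi transporter of UDP-GlcNAc, fell by 0.63 in MYC tumours (SE 0.185) and differed by -0.08 in MYC/REG3A tumours. Ugdh, which makes UDP-glucuronate, rose by 0.79 in MYC tumours (SE 0.21) and differed by 0.62 in MYC/REG3A tumours.

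Of 19 transferases that use UDP-GlcNAc 3 rose and 2 fell in MYC tumours, with a median of -0.08. Mgat4b, which adds a branch to N-glycans, rose by 0.48 (SE 0.125) in MYC and by 0.57 (SE 0.125, limma adjusted p = 0.0212) in MYC/REG3A tumours. Pomgnt2, which acts on O-mannose glycans, rose by 0.68 (SE 0.168) and B3gnt3 fell by 0.46 (SE 0.137) in MYC tumours, and in MYC/REG3A tumours they differed by 0.30 and -0.10. Of 5 genes of sialic acid synthesis 1 rose, the phosphatase Nanp by 0.54 (SE 0.185), and of 10 genes of amino sugar breakdown 1 fell, the lysosomal glucosaminidase Naglu by 0.48 (SE 0.161), both in MYC tumours. None of the genes of the sialic acid and amino sugar lists passed in MYC/REG3A tumours.

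Of 9 genes for partner proteins of OGT, such as Hcfc1 and the Tet enzymes, 0 passed in either genotype (medians 0.13 and 0.01). Of 11 genes of the unfolded protein response, the programme through which Gfpt1 is known to be induced, 1 rose and 1 fell in MYC tumours and 0 passed in MYC/REG3A tumours. Sdf2l1, an ER chaperone component, rose by 0.95 (SE 0.263, limma adjusted p = 0.0212) and Xbp1 fell by 0.45 (SE 0.146, adjusted p = 0.0388) in MYC tumours. The median change of this list was 0.01 in MYC and -0.03 in MYC/REG3A tumours.

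**Figure D5:**
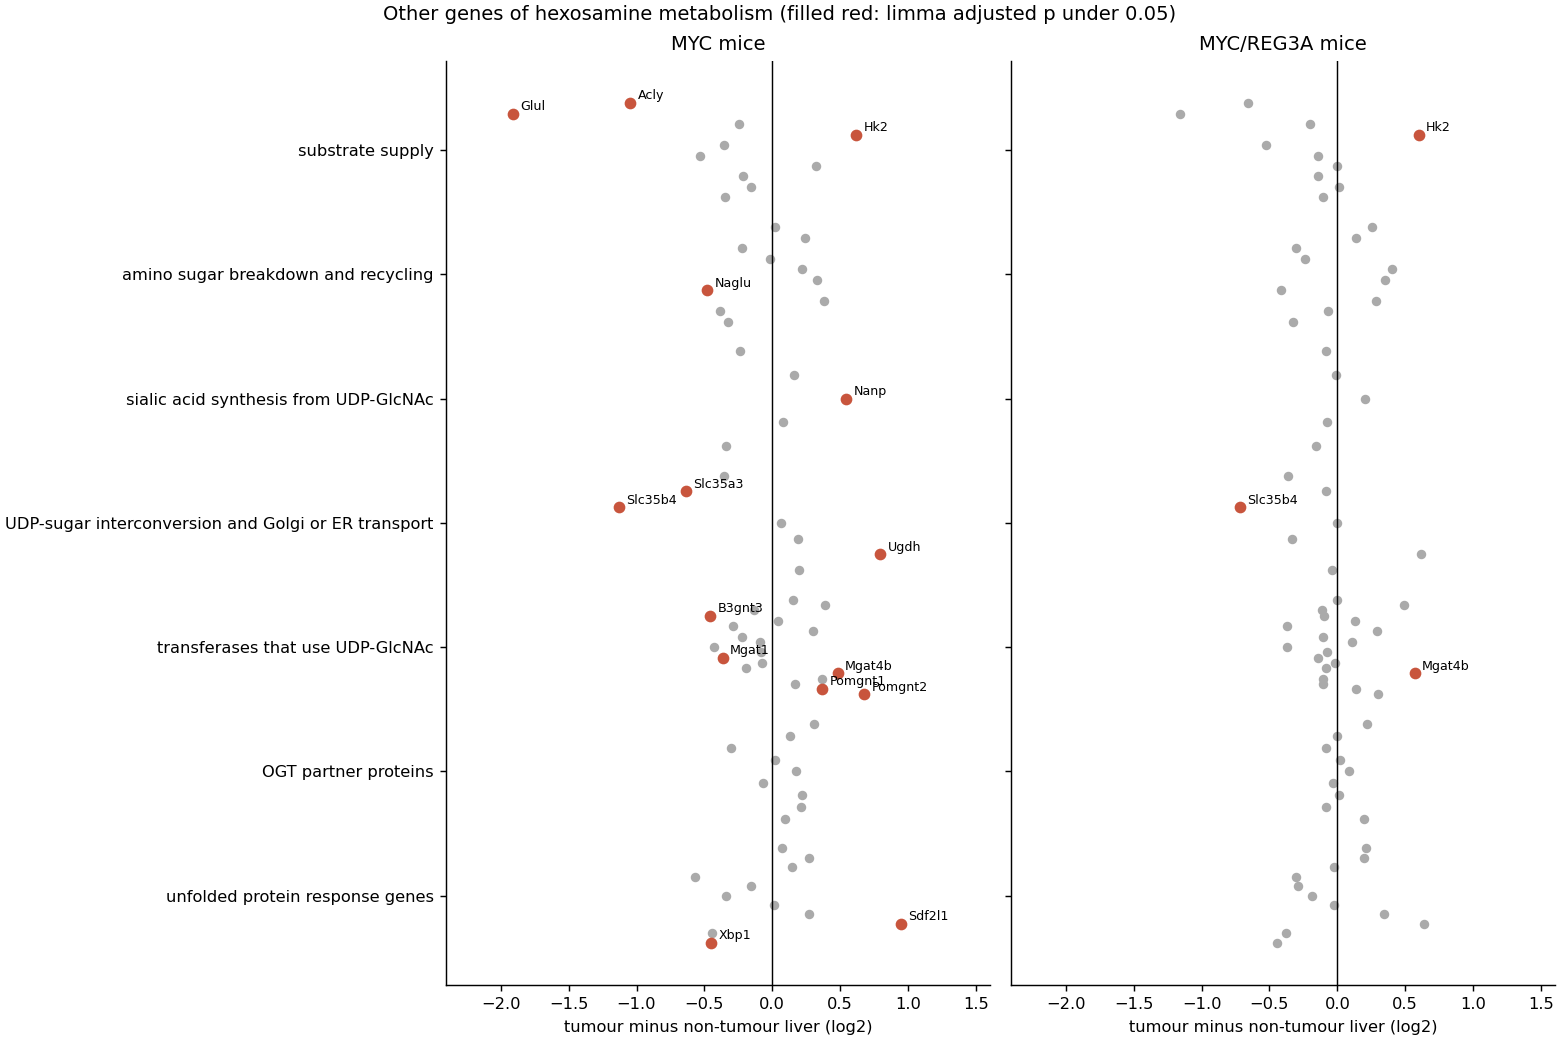
Tumour minus non-tumour liver (log2) for 71 tested genes of 7 lists around the hexosamine pathway, in MYC mice (left) and MYC/REG3A mice (right); each point is the limma estimate of 1 gene, and named red points passed an adjusted p under 0.05. Red points lie on both sides of 0 in MYC mice, 7 above and 8 below, and 3 remain red in MYC/REG3A mice, Hk2, Slc35b4 and Mgat4b.

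The genes whose pattern was most like that of Ogt over the 16 arrays were Malt1, Zmym2 and Bnip2, with Pearson correlations of 0.92, 0.91 and 0.91. Their changes in MYC tumours were -0.25, -0.63 and -0.28, of which that of Zmym2 passed (limma adjusted p = 0.0112). Most like Oga were Cox4i1, Rnaseh2a and Lsm3 at 0.83, 0.80 and 0.79, and most like Gfpt1 were Tmem39a, Arfgap3 and Chrm3 at 0.86, 0.83 and 0.82. These correlations are descriptions over arrays that share mice, tissue groups and normalisation.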

How the data were processed

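Total RNA of the 16 samples was labelled with biotin and hybridised to 1-colour mouse Affymetrix arrays, per the labels' protocols. The deposited values are on a log2 scale and come from RMA; the submitters' processing notes name Affymetrix Expression Console 1.4.1. The log2 base was read from the values and the settings are not given in the sources used here. RMA equalises the arrays, so each change is relative to the other genes. Detection calls were not used. Precision rests on 4 mice per group.

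Of 41345 rows, 23521 had 1 gene symbol, 1814 several and 16010 none; 23328 of the first matched RefSeq genes of GRCm38.p6 by Entrez ID. A gene was tested when it exceeded the array median on at least 4 of 16 arrays. The 2-sided tests, over all 16 arrays, were those of limma 3.58.1 (R 4.3.3), with Benjamini-Hochberg adjustment over all tested genes. Tumour comparisons were blocked by mouse, each animal having given both tissues (deviations of its 2 arrays from their group means correlated at 0.0963 to 0.325, highest with the own tumour in 7 of 8 mice); genotype comparisons used group means. SE, intervals and p pool the spread over all groups. The fits were also run on simulated data with independent noise and no mouse effect, which cannot check the blocking by mouse. Named genes are the 10 genes, per list up to 3 called genes of lowest p, and per gene Ogt, Oga and Gfpt1 the 3 most correlated genes. The genes and lists were chosen with earlier results of these data known. Markers of hepatocytes, stellate cells, sinusoidal endothelium, Kupffer cells, bile duct and lymphocytes were counted; bile duct markers fell in 2 of 4 and 0 of 4 cases and lymphocyte markers in 2 of 6 and 2 of 6 cases in MYC and MYC/REG3A tumours, and 2 of 5 and 1 of 5 hepatocyte markers fell.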

Additional observations from a re-analysis of the deposited data

Results flagged for a closer look

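In 3 of 60 sets of 4 values 1 sample lay far from the other 3, by the gap to its neighbour over the whole range; chance gives about 1 in 20, or 3 of 60. Ogt was lowest in the non-tumour liver of MYC mouse 2, at 9.52 against 9.71 to 9.73. Gfpt1 was highest in the tumour of MYC mouse 2, at 7.11 against 6.43 to 6.53. Nagk was lowest in the tumour of MYC/REG3A mouse 4, at 6.63 against 6.94 to 6.97.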

How the results depend on the processing

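Of 873 values of the 9 tested genes under alternative settings, 789 kept their direction and their side of the threshold, 26 lost a call, 11 gained one and 47 changed sign, all 47 in differences that did not pass. In the comparisons between genotypes almost no gene of the array passed, so few calls could change there. For the tumour change in MYC mice 104 of 117 values stayed, 10 lost a call and 3 gained one. With 1 mouse left out, the number of the 9 genes called in MYC tumours ran from 1 to 3 (1 without mouse 1 or 3) and that of all genes from 2975 to 3951 (2975 without mouse 4). In MYC/REG3A tumours these were 0 to 1 and 273 to 1630 (281 without mouse 1, 273 without mouse 3, 944 without mouse 4), and 1 of the 9 was also called with array weights, with the mouse as a random block and without mice 2 and 4. The mean over both genotypes called 3 to 5 of the 9 with 1 mouse left out (3 without MYC mouse 3 or MYC/REG3A mouse 1), and 2 without MYC/REG3A mice 2 and 4. For the difference of the tumour changes, all-gene counts were 0 to 2 with 1 mouse left out, 0 without a filter, with the stricter filter, with no replicate block (without pairing) and without MYC/REG3A mice 2 and 4, and 3 with array weights, against 1. For the genotypes they were 0 to 22 in non-tumour liver (22 without MYC mouse 2, against 0), and in tumours 3 to 114 with 1 mouse left out (114 without MYC/REG3A mouse 1, 21 without MYC mouse 2 and 13 without MYC mouse 3, against 3), 15 with the mouse number as replicate block, and 0 with only the 2 groups compared or without MYC/REG3A mice 2 and 4. Without the pairing by mouse (no replicate block) 2 of the 9 genes passed in MYC tumours, Gnpda1 being lost at an adjusted p of 0.0671, and all-gene counts of 4419 and 1613 stood against 4505 and 1690.

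Signs turned as follows. In the difference of tumour changes, Oga was -0.0085 with centred arrays, -0.032 with array weights and -0.021 with all rows averaged, Uap1 -0.0019 and -0.022 with the first 2 of these, Gfpt1 0.0027 with array weights, and Gfpt1 and Gnpda1 0.24 and 0.16 without MYC/REG3A mice 2 and 4. Between genotypes, Gfpt1 was 0.0014 with centred arrays and Uap1 -0.015 with array weights in non-tumour liver, and in tumours Ogt and Uap1 were 0.035 and -0.0044 with array weights and Gfpt1 0.30 without MYC/REG3A mice 2 and 4. With 1 mouse left out, the ranges were, for the tumour change in MYC/REG3A mice, -0.0089 to 0.47 (Gfpt1); for the difference of changes, -0.063 to 0.25 (Ogt), -0.11 to 0.13 (Oga), -0.20 to 0.28 (Gfpt1) and -0.053 to 0.11 (Uap1); in non-tumour liver, -0.060 to 0.095 (Oga), -0.16 to 0.12 (Gfpt1), -0.043 to 0.33 (Pgm3), -0.057 to 0.10 (Uap1) and -0.15 to 0.026 (Uap1l1); and in tumours, -0.19 to 0.12 (Ogt), -0.019 to 0.11 (Oga), -0.15 to 0.19 (Gfpt1), -0.052 to 0.17 (Uap1) and -0.026 to 0.33 (Gnpda1). The causes were not tested.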
